A study of Drosophila melanogaster with 48 samples.

Results

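The dpr, DIP, beat and side genes of Drosophila melanogaster encode cell surface and secreted proteins of the immunoglobulin superfamily. All protein-coding genes with a symbol made of dpr and a number, DIP- and a Greek letter, beat- and a Roman numeral, or side alone or with a Roman numeral were taken, which gave 54 of the 13946 protein-coding genes. They are 21 dpr, 11 DIP, 14 beat and 8 side genes, of which 21 lie on chromosome arm 3R, 16 on 2L, 7 on 2R, 5 on X, 4 on 3L and 1 on chromosome 4. For each gene the ATAC-seq summits in the gene body and in 2 kb on either side of it were counted and divided by gene length. ATAC-seq uses a transposase that cuts and tags open DNA, and a summit is the point of strongest signal in a called region.

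Dpr and DIP proteins bind each other across cell contacts, and Beat proteins bind Side proteins in the same way. The pairs are known from the fly nervous system, where the receptor and its partner often sit on neurons that form synapses with each other, on photoreceptors and their targets, or on motor axons and muscle. The founding members were named for phenotypes: dpr1 for a defect in the proboscis extension response to salt, beat-Ia (beaten path) and side (sidestep) for motor axons that fail to leave their nerve or to enter muscle.

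The libraries came from S2 cells, a cultured embryonic line that resembles hemocytes, the blood cells of insects. The cells carried a CuSO4-inducible Grainyhead (Grh, an epidermal regulator), Zelda (Zld, an activator of the early zygotic genome) or Twist (Twi, a mesoderm regulator), or a truncated Grh or Zld reduced to its DNA-binding domain (DBD). There were 48 libraries in 24 groups of 2, all taken 48 h after copper was added. Wild-type S2 cells with the same copper dose as the factor cells entered each main list. The dose was 100 uM in the Grh list, 1000 uM in the Zld list, 40 uM in the Twi list, 20 uM in the Grh DBD list and 100 uM in the Zld DBD list. The titration lists cover factor cells alone, at 0, 25, 100 and 400 uM for Grh, at 0, 500, 1000 and 1500 uM for Zld and at 0, 10, 40 and 160 uM for HA-tagged Twi. The labels of the DBD titration libraries, with Grh DBD cells at 80 uM and Zld DBD cells at 400 uM, name no list. The Zld lists alone hold libraries at 500 uM copper or more, so factor and high copper cannot be told apart there.

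The values are the 10 peak lists that the authors deposited, which held from 25397 regions (HA-Twi titration) to 71754 regions (Twi). Each list pools libraries, control and factor cells together in the main lists, so a region in a list is not shown to depend on the factor. The lists give no value per library, data of single libraries were not analysed here, the depth is unknown, and no comparison could be tested against the spread between replicates. Every difference below is therefore a description of these lists. Intervals are 95% intervals by the exact binomial method; they take in only the counting error over regions, which are not replicates.

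Most of the 54 genes were long and held few summits for their length. Their median length was 36.15 kb, against 2.161 kb over all protein-coding genes, with a range from 3.738 kb (dpr19) to 379.081 kb (DIP-lambda). Since the 2 kb flanks weigh far more in a short gene, the comparison was made among genes of at least 10 kb, of which there were 1984 with 44 of the receptor genes among them. In that class the receptor genes held fewer summits per kb than the other genes in each of the 10 lists. The median was 0.1234 summits per kb in the Grh list against 0.484 over all genes of that length, 0.052 against 0.3467 in the Zld list and 0.4606 against 0.7526 in the Twi list. In the titration lists it was 0.019 against 0.3007 (Grh), 0.0061 against 0.2554 (Zld) and 0 against 0.2359 (HA-Twi). The 4 DBD lists gave 0.0315 to 0.081 for the receptor genes and 0.2795 to 0.3605 for all genes of that length.

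Over all 54 genes, the share with a summit anywhere in the window stood above that of all genes in the Twi list and below it in the other 9, narrowly so in the Grh, Zld DBD and Grh DBD titration lists. In the Twi list 52 of the 54 genes had at least 1 summit, against 92.2% of all genes, in the Grh list 46 against 86.8%, and in the Zld list 40 against 81.0%. In the titration lists 31 genes had a summit for Grh (79.2% of all genes), 29 for Zld (76.0%) and 25 for HA-Twi (74.7%). In the Grh DBD list there were 41 such genes (79.3%) and in the Zld DBD list 44 (81.7%), with 41 (77.3%) and 37 (78.0%) in the titration lists of these domains. These shares set mostly long genes beside mostly short ones.

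Among genes of at least 10 kb the share was lower for the receptor genes in all 10 lists. The Grh list had a summit in 37 of the 44 receptor genes against 96.0% of all genes of that length, the Zld list in 33 against 94.3% and the Twi list in 42 against 97.9%. The titration lists had one in 24 genes for Grh (92.6% of all genes of that length), in 22 for Zld (90.2%) and in 18 for HA-Twi (88.7%). The Grh DBD list had one in 32 genes (93.1%), the Zld DBD list in 35 (94.6%), and their titration lists in 33 (91.8%) and 28 (92.3%). The Twi list, the longest of the 10, was closest to the share of all genes, and the HA-Twi titration list, the shortest, was farthest from it. Between them the order did not follow list length. The Grh titration list (30394 regions) had 54.5% and the shorter Grh DBD titration list (28164 regions) had 75.0%.

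**Figure D1:**
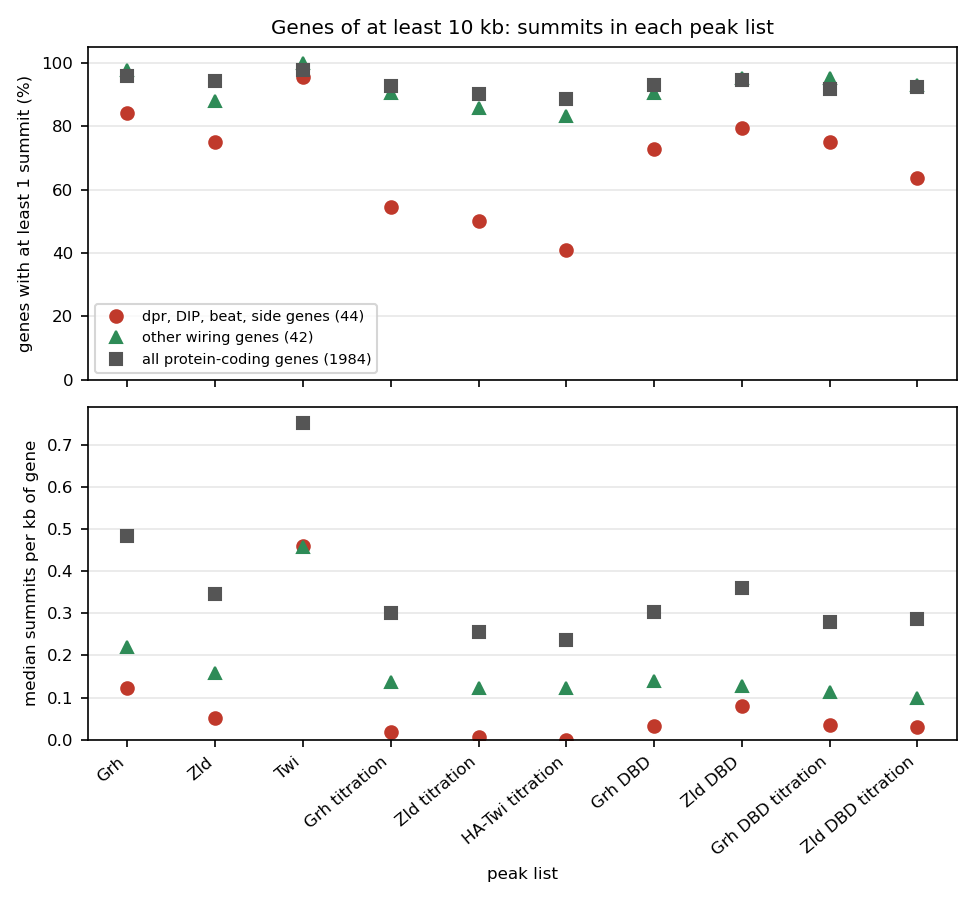
Genes of at least 10 kb with at least 1 summit (upper panel, percent) and their median summits per kb of gene (lower panel) in each of the 10 peak lists; red circles are the 44 dpr, DIP, beat and side genes, green triangles the 42 other wiring genes and grey squares all 1984 protein-coding genes of that length. The red circles lie lowest in every list in the upper panel and in 9 of the lists in the lower panel; in the Twi list the wiring genes (0.4574) and the receptor genes (0.4606) have nearly the same median.

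The difference was also present within narrower classes of gene length. Taken as the mean over the 6 lists of full-length factors, the receptor genes of 20 to 50 kb had a median of 0.1363 summits per kb (19 genes) against 0.363 over all 706 genes of that length. Those of 50 to 100 kb had 0.1123 (13 genes) against 0.267, those of 10 to 20 kb had 0.2932 (8 genes) against 0.532, and the 4 genes of at least 100 kb had 0.008 against 0.1539. The Twi list was the exception among the shorter classes. There the 8 receptor genes of 10 to 20 kb had a median of 1.1072 summits per kb, above the 0.8652 of all genes of that length, and the 6 genes of 5 to 10 kb had 1.3477 against 1.1587.

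**Figure D2:**
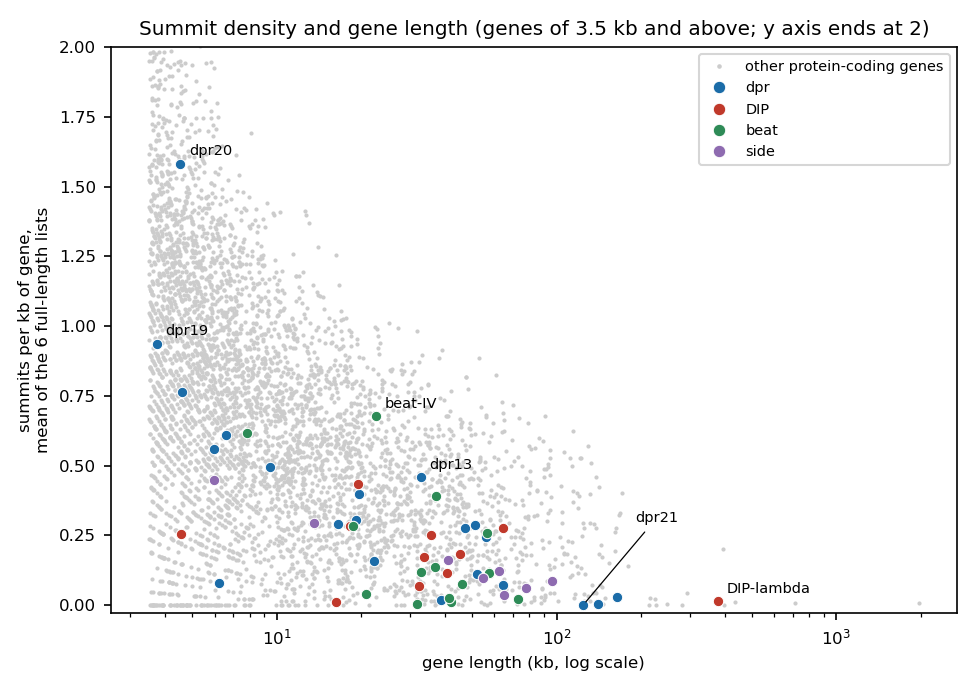
Gene length (log scale, kb) against summits per kb of gene, as the mean over the 6 lists of full-length factors; each grey point is another protein-coding gene and each coloured point a dpr, DIP, beat or side gene. Most coloured points of 10 kb or more lie in the lower part of the grey cloud, while beat-IV (0.676) and dpr13 (0.458) lie within it and dpr21 (0) lies on the axis.

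The ends of the genes, where promoters lie, were mostly without a summit that all lists shared. The gene table gives no strand, so both ends of a gene were used, and a summit near an end can belong to a neighbour. Only 9 of the 54 genes had a summit within 500 bp of their own ends in every list, against 56.6% of all genes. These were beat-IV, beat-Va, beat-Vb, DIP-beta, DIP-epsilon, dpr14, dpr18, dpr19 and side-IV. Of the 44 genes of at least 10 kb they made up 5, or 11.4%, against 65.4% of all genes of that length. At the other extreme, 14 of the 54 genes had no summit near an end in any list, against 15.4% of all genes, and among those of at least 10 kb the shares were 29.5% and 9.02%.

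Other cell surface genes of neuronal wiring were set beside them. A list of 49 such genes (among them Fas2, Dscam1, robo1, CadN, Sema1a and Ten-m) was used, of which 42 are at least 10 kb long. Of those 42 genes, 23 (54.8%) had a summit near their own ends in all 10 lists, against 5 of the 44 receptor genes. A summit anywhere in the window was found in all 10 lists for 41 of the 49 wiring genes (83.7%) and for 22 of the 54 receptor genes (40.7%), beside 70.6% of all genes and 86.0% of genes of at least 10 kb. In summits per kb the wiring genes were sparse as well: their median was 0.2189 as the mean of the 6 full-length lists, beside 0.1683 for the 54 receptor genes, 0.4178 for all genes of at least 10 kb and 1.0653 for all genes. CadN (0.014) was among the sparsest and CadN2 (0.00566) had a summit in 1 list only.

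Markers of cell types gave the setting in which these values stand. Of 13 hemocyte genes, 10 (76.9%) had a summit in all 10 lists. The median of the 13 was 0.689 summits per kb, with srp, the GATA factor of hemocytes, at 0.799. They ranged from 0.119 (Hml) to 3.717 (He). He and NimC1 had a summit in 9 lists and Sr-CI in 5. Of 11 neuronal genes, 8 had a summit in all 10 lists, with a median of 0.1957 summits per kb, near the 0.1683 of the receptor genes; elav stood at 0.667 and VGlut, the vesicular glutamate transporter, had a single summit in 1 list. All 4 glial genes, gcm, moody, nrv2 and repo, had a summit in every list. Their median was 0.6819 summits per kb, near that of the hemocyte genes. The neuronal share, 72.7%, was near the 70.6% of all genes and below the 86.0% of genes of at least 10 kb. These groups were not matched for length. Their median lengths were 16.0 kb for the hemocyte genes, 31.8 kb for the neuronal genes, 4.6 kb for the glial genes and 36.2 kb for the receptor genes.

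The dpr genes spanned the widest range, from none to 1.58 summits per kb as the mean of the 6 full-length lists, with a family median of 0.2871. The dense members were short. dpr20 (4.529 kb, 3L:852720-857248) had 9, 6 and 15 summits in the Grh, Zld and Twi lists, 5, 6 and 2 in their titration lists and 6 to 8 in the 4 DBD lists. dpr19 (3.738 kb, mean 0.936) had 2 to 7 summits in every list, and dpr14 (4.583 kb, mean 0.764) had 3 or 4 in every list. The windows of these 3 genes thus had summits in every list, and those of dpr20 and dpr19 had most in the Twi list. Many of these summits lay in the 2 kb flanks, which are divided here by a short gene length. In the Grh, Zld and Twi lists the gene body itself held 0, 0 and 0 for dpr14, 0, 0 and 1 for dpr19 and 5, 2 and 9 for dpr20.

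At the low end, dpr21 (124.513 kb, 2R:3066499-3191011) had no summit in any list; 6.1% of all genes and 1.11% of genes of at least 10 kb shared this. dpr8 (140.126 kb, X:14322226-14462351) had 1 summit in the Zld list, 1 in the Twi list and none elsewhere. dpr10 (38.655 kb) had 4 summits in the Twi list and none in the other 9 lists. dpr7, the member on chromosome 4, likewise had 3 in the Twi list and none elsewhere. dpr6 (164.71 kb, 3L:9974651-10139360), which lies next to dpr10, had 3, 5 and 15 summits in the main lists and 1 or 2 in each of the other lists, and its window holds 7 other protein-coding genes.

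A group of longer dpr genes was rich in summits in some lists and nearly empty in others. dpr13 (32.781 kb) had 32, 5 and 51 summits in the Grh, Zld and Twi lists, 0, 2 and 0 in their titration lists, and 6 to 15 in the DBD lists. dpr3 (51.089 kb) had 29, 2 and 51, then 4, 1 and 1, and from 1 to 24 in the DBD lists. dpr12 (56.12 kb), whose product is a ligand of DIP-delta in the mushroom body, had 72 summits in the Twi list, the highest count of the 54 genes, but 7 in the Grh list, 2 in the Zld list and 0, 1 and 0 in the titration lists. Most of these summits were weak. In the Twi list 7 of the 72 of dpr12, 12 of the 51 of dpr13 and 10 of the 51 of dpr3 reached a −log10 q of 10, and in the Grh list 0 of 7, 1 of 32 and 1 of 29 did. dpr4 and dpr5, short neighbours on 3R, had 12 and 8 summits in the Grh list and 16 and 12 in the Twi list, but none in the Zld list and none in the 3 full-length titration lists.

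Among the DIP genes the median was 0.1837 summits per kb. DIP-zeta (19.534 kb) came first at 0.435, from 21 summits in the Grh list, 29 in the Twi list and 1 in the Grh titration list, with none in the Zld, Zld titration and HA-Twi titration lists and 3 to 12 in the DBD lists. DIP-delta, at 0.282, was built the same way, with 10 summits in the Grh list, 21 in the Twi list and none in the Zld and full-length titration lists. DIP-alpha (64.405 kb, X:3507245-3571649), at 0.277, differed from both in having summits in every list: 20, 18 and 44 in the main lists, 11, 10 and 4 in the titration lists and 8 to 28 in the DBD lists. At least 4 of its summits reached a −log10 q of 10 in each list. DIP-epsilon (33.556 kb) had 6, 8 and 6 summits in the main lists, 6, 7 and 2 in the titration lists and 2 in each DBD list, and so was not richer in the Twi list than in the Grh list.

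The sparsest DIP genes were DIP-eta, DIP-lambda and DIP-theta. DIP-eta (16.224 kb) had a single summit, found in the Zld list at a fold enrichment of 1.78, and none in the other 9 lists. DIP-lambda, the longest of the 54 genes (379.081 kb, 2R:326768-705848), had 12 summits in the Grh list, 19 in the Twi list, 1 to 6 in the DBD lists and none in the other 4 lists. DIP-theta (32.27 kb) had 3 summits in the Grh, Zld and Grh titration lists, 4 in the Twi list and none in the other 6.

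Among the beat genes, with a median of 0.1152, beat-IV stood apart. It was the densest of the 44 genes of at least 10 kb, with a mean of 0.676 summits per kb, above 80.0% of all genes of that length. beat-IV (22.666 kb, 3R:23557412-23580077) had 29, 10 and 44 summits in the main lists, 2, 5 and 2 in the titration lists and 13 to 22 in the DBD lists. Next came beat-Va (7.86 kb) at 0.615 and beat-Vc (37.181 kb) at 0.390, the latter with 26, 4 and 54 summits in the main lists and 1 in each full-length titration list. beat-VII (36.685 kb) had 7, 2 and 19 in the main lists, 0, 1 and 1 in the titration lists and 1 to 3 in the DBD lists.

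The lowest beat genes lie in the beat-I and beat-III clusters on 2L. beat-Ia (31.72 kb), the gene for the motor axon factor, had 1 summit in the Twi list and none in the other 9. beat-IIIa (42.095 kb) had 3 and beat-IIIb (20.894 kb) had 5, again in the Twi list alone. beat-IIIc (73.098 kb) had 2, 1 and 4 summits in the main lists, 2 in the Grh titration list and 2 in the Zld DBD list. With dpr7 and dpr10, beat-Ia, beat-IIIa and beat-IIIb made up the 5 genes with summits in the Twi list and in no other. The share of all genes with summits in that list alone is not given here, so this count stands without a comparison. The highest fold enrichments of the 5 genes were 1.39 to 1.68. The 3 summits of dpr7 lay in its flanks, and the 3 of beat-IIIa lay inside CG34106 as well. beat-Ib, in the same cluster as beat-Ia, had 3 to 8 summits in every list, and 4 other protein-coding genes lie inside it.

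The side genes had the lowest median, 0.1089 summits per kb, and also the greatest median length, 58.5 kb. The median length was 22.3 kb for dpr, 33.6 kb for DIP and 36.9 kb for beat genes, so the family medians are not matched for length. side-VII (5.968 kb) was the densest at 0.447, with 4, 2 and 6 summits in the main lists and 1 or 2 in each of the others. side-IV (13.595 kb) followed at 0.294, with 3, 3 and 9 in the main lists, 3, 2 and 4 in the titration lists and 2 in each DBD list, and side-V (40.962 kb) stood at 0.163. The lowest were side-II (64.812 kb) at 0.036, side-VI (77.795 kb) at 0.0621 and side-III (96.691 kb) at 0.0862. side-VI had 6 summits in the Grh list, 23 in the Twi list, 4 in the Zld DBD list and none in the other 7. side itself (62.395 kb) had 35 summits in the Twi list, 6 in the Grh list and 1 to 5 in the others, and side-VIII (54.614 kb) had 28 and 4 in these lists and none in the Zld and full-length titration lists.

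For partners known from the fly nervous system the values of both genes are set side by side, without a test. DIP-alpha, with summits in all lists, pairs with Dpr6 and with Dpr10. The window of dpr6 held 1 to 15 summits per list, but its gene body held 0 in the Grh list. The window of dpr10 held summits in the Twi list alone. DIP-gamma (45.369 kb, 8, 8 and 30 summits in the main lists) pairs with Dpr11 in colour vision circuits, and dpr11 (64.162 kb) had 5, 0 and 22. DIP-delta and dpr12 both lacked summits in the Grh and HA-Twi titration lists, where 31 and 25 of the 54 genes had one. In the Zld and Zld titration lists DIP-delta had 0 and 0 and dpr12 had 2 and 1. Of the beat and side pairs, side-IV had summits in all lists, as had its partner beat-IIb (1 to 15 per list), while side-II had 8 or fewer per list and its partner beat-VI 3 to 60. side had summits in all lists and beat-Ia in 1.

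By median fold enrichment, regions in the receptor genes were weak for their lists in all lists but the HA-Twi titration list. The authors' lists give each region a fold enrichment over background, compared here only between regions of the same list. A highest value over several lists is given as a description. In the Grh list its median was 1.891 in the receptor windows and 2.261 over the list, in the Zld list 2.963 and 3.846, in the Twi list 1.612 and 1.764, and in the 4 DBD lists 1.984 to 2.284 and 2.53 to 3.32. In the Grh titration list it was 3.835 and 4.637, and in the Zld titration list 4.057 and 4.534. The HA-Twi titration list went the other way, with 6.683 in its 53 receptor regions and 5.602 over the list. The values over the lists take in all regions and were not matched for gene length. A −log10 q of at least 10 was reached by 14.0% of the receptor regions of the Grh list (interval 10.9 to 17.7) against 44.4% of the list, by 51.3% (43.0 to 59.6) against 68.2% of the Zld list, by 21.8% (19.4 to 24.4) against 45.1% of the Twi list and by 15.4% (11.5 to 20.1) against 47.7% of the Zld DBD list.

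Such a strong region was absent from all 10 lists in 10 of the 54 genes, against 15.2% of all genes. Among genes of at least 10 kb the shares were 20.5% for the receptor genes and 3.68% for all. The 10 genes were beat-Ia, beat-IIIa, beat-IIIb, DIP-eta, dpr7, dpr10, dpr11, dpr21, side-VI and side-VIII. A strong region was present in every list in 17 of the 54 genes (31.5%), against 64.7% of all genes and 80.8% of those of at least 10 kb. Among the 17 were DIP-alpha, DIP-beta, DIP-epsilon, DIP-iota, beat-Ib, dpr3, dpr6, side-III and side-VII. Such a region can lie in a flank. The only region of dpr6 in all 10 lists lay 1904 bp outside the gene, inside CG42455 and vnc. Those of DIP-iota and side-VII lay 1084 bp and 906 bp outside.

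The position of the regions relative to gene ends differed between lists. Within 500 bp of an end of any protein-coding gene lay 16.1% of the receptor regions of the Grh list (12.8 to 20.0) against 30.8% of the list, 31.3% (24.0 to 39.4) against 39.0% in the Zld list and 11.8% (9.88 to 13.9) against 25.3% in the Twi list. In the 4 DBD lists the shares were 19.2% to 29.7% against 33.9% to 38.9%. In the titration lists they were 35.3% (25.2 to 46.4) against 38.6% with Grh, 40.5% (29.6 to 52.1) against 41.9% with Zld and 52.8% (38.6 to 66.7) against 43.3% with HA-Twi. The intervals of the Zld list and of these 3 titration lists include the value of the list.

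When overlapping regions of the 10 lists were merged, the receptor windows held 1189 regions, of 82962 in all. A single list held 706 of them, or 59.4%, against 39.8% of all regions, and 81.0% of these came from the Twi list, against 69.5% of all such regions. All 10 lists held 35 of them, or 2.94%, against 20.5%. Of the 706 receptor regions of 1 list, 7.65% lay within 500 bp of a gene end. The share over all regions of 1 list is not given here, so this value describes the receptor regions without a comparison. By number dpr12 had most, with 58 of its 78 regions in 1 list (74.4%), while beat-IV had 12 of 48.

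**Figure D3:**
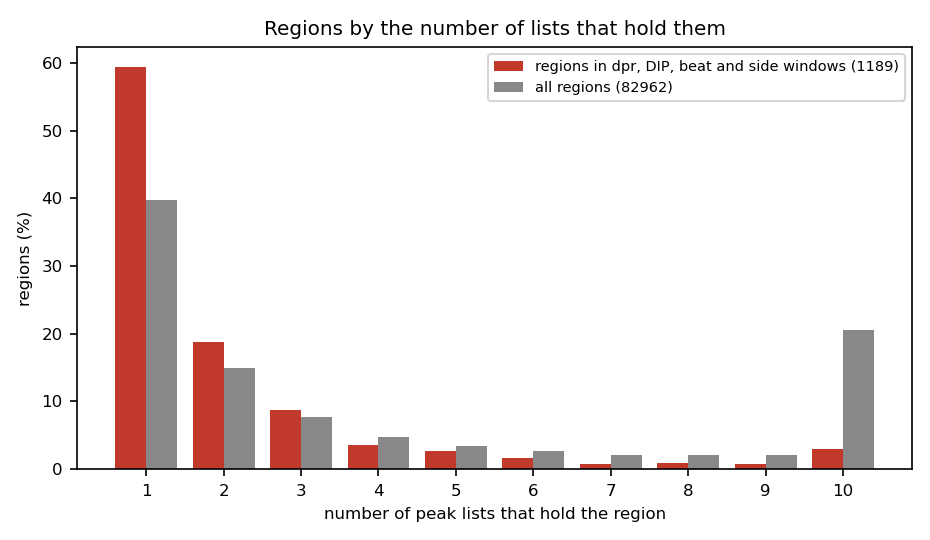
Merged regions by the number of peak lists that hold them, as a percent of the 1189 regions in the windows of the 54 genes (red) and of all 82962 regions (grey). The red bar is taller at 1 list (59.4% against 39.8%) and far shorter at 10 lists (2.94% against 20.5%).

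The 35 regions that every list held lay in the windows of 20 genes. For 23 of them the nearest gene end was that of a neighbour. Within 500 bp of an end lay 22 of the 35 (62.9%, against 47.8% of all regions in all lists), of which 12 were near an end of the receptor gene and 10 near the end of another gene only. The region of dpr19 with the highest value (28.2) lay 22 bp from an end of CG33303, and that of dpr20 (14.9) lay 7 bp from an end of Dci. By contrast, regions of beat-Vb (26.0) and dpr18 (24.4) lay 292 bp and 110 bp from an end of those genes themselves.

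Only 12 of the 35 lay inside a receptor gene. In DIP-alpha, X:3545994-3546308 (dm6) had the highest fold enrichment of all receptor regions in the Grh and Zld titration lists. It lay 25551 bp from an end of DIP-alpha and 11714 bp from the nearest end of any protein-coding gene, ppk8. Its fold enrichments were 15.4, 21.3 and 13.6 in the Grh, Zld and Twi lists, 27.7, 29.5 and 14.8 in the titration lists and 10.4 to 13.9 in the DBD lists. A weaker region in all lists flanked it on either side, at X:3545708-3545926 and X:3546362-3546619. In beat-Ib, 3 such regions lay between 15911330 and 15913792 on 2L, the strongest with a fold enrichment of 21.7, and dpr2, dpr3 and beat-VI each held a region in all lists more than 10 kb inside the gene.

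The receptor region with the highest fold enrichment in each of the Grh, Zld, Twi, Grh DBD, Zld DBD and Grh DBD titration lists lay in the middle of beat-VI (56.607 kb, 3R:28418208-28474814), 23844 bp from the nearer end, with no other protein-coding gene in the window. At 3R:28441986-28442203 the Grh list gave it a fold enrichment of 42.71, which ranked 9 among its 44658 regions. The values were 38.47 (rank 18) in the Zld list, 36.07 (rank 21) in the Twi list, 29.15 (rank 173) in the Grh DBD list and 31.32 (rank 86) in the Zld DBD list. The Grh titration list, with 30394 regions, did not hold it at all, while the Zld and HA-Twi titration lists gave 27.22 and 14.08. In the Grh DBD titration list the value was 24.17, and in the Zld DBD titration list it was 2.11, rank 21530 of 29048. The region was thus among the strongest in the 5 main lists and weak or missing in 2 of the titration lists.

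**Figure D4:**
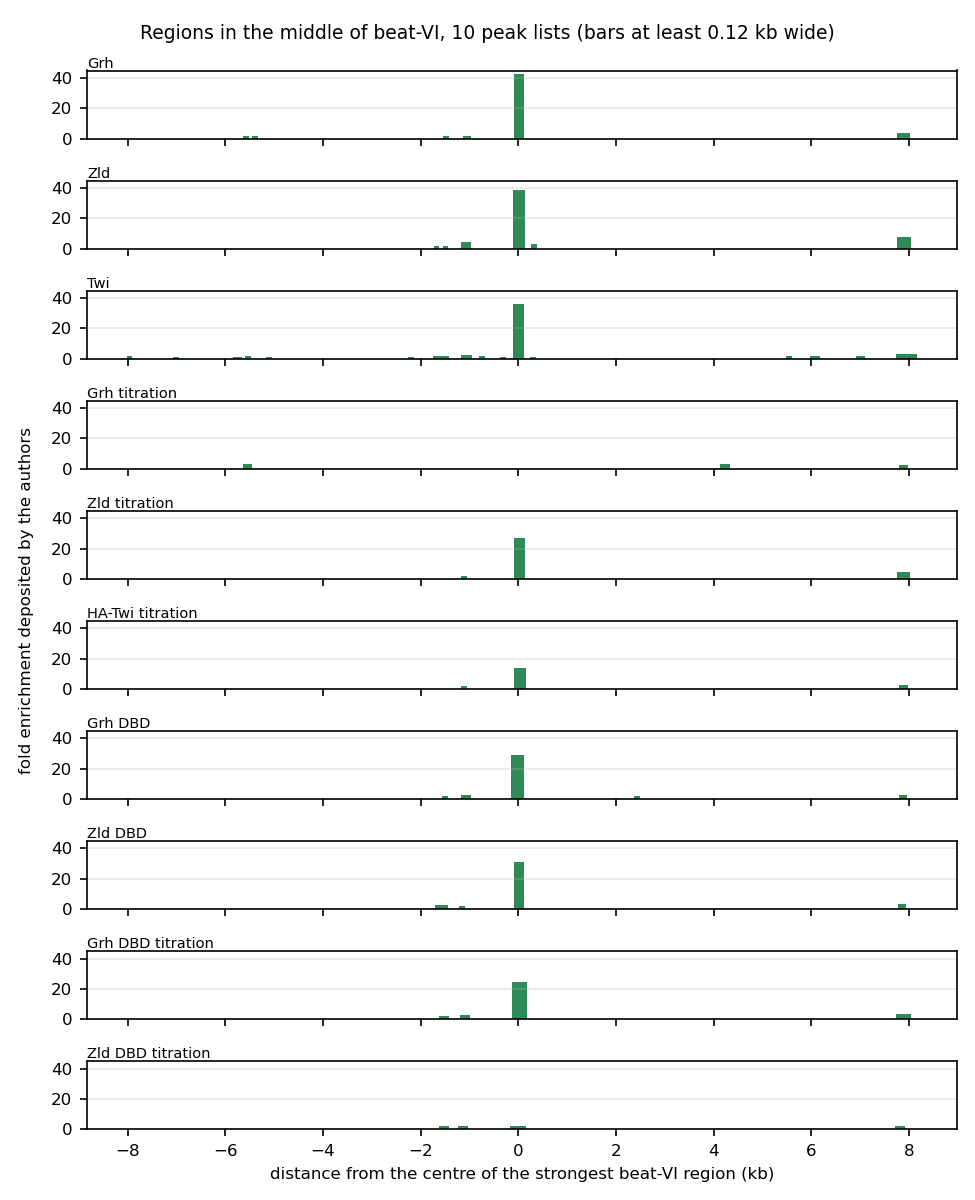
Regions within 8 kb before and 9 kb after the strongest beat-VI region in the 10 peak lists, drawn at their distance from its centre (kb); bar height is the fold enrichment deposited by the authors for that list. The central bar reaches 42.71 in the Grh list and is missing in the Grh titration list and 2.11 in the Zld DBD titration list, while the region about 8 kb to the right is present in every list.

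A region missing from the Grh titration list and present in the other 9 was found 249 times in all, and by the highest fold enrichment in any list the beat-VI region came first among these, with 12.27 as the next value. That next region lies 1075 bp outside side, 314 bp from an end of CG44290. The receptor windows held 5 of the 249, all on 3R: 2 in beat-VI and 1 each in beat-IV, beat-VII and side; 53 of the 249 lay on 3R. Of the 109 regions of the Grh list with a fold enrichment of at least 20, 3 were missing from the Grh titration list, and 2 each from the Zld and HA-Twi titration lists. The main and the titration lists do not share libraries, and a cause of the difference was not tested.

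The Twi list was richest in summits of these genes out of proportion to its length. It held 1054 of them, against 428 in the Grh list and 150 in the Zld list, ratios of 2.46 and 7.03 where the lists themselves stood at 1.61 and 2.11. Against the HA-Twi titration list, which held 53, the ratio was 19.9 and that of the lists 2.83. More summits in the Twi list than in the Grh list were found in 49 of the 54 genes, against 66.2% of all genes. For the Zld list there were 47 such genes, against 65.3%, and for the HA-Twi titration list 51, against 73.0%. These shares set mostly long genes beside mostly short ones, which hold fewer summits. The shares among genes of at least 10 kb are not given here. Of the 686 receptor regions of the Twi list absent from the Grh and Zld lists, 1 was found in the HA-Twi titration list (0.146%, interval 0.00369 to 0.809). Of all such regions of the Twi list 1.91% were found there. The Grh titration list held 2 of the 686 (0.292%, interval 0.0353 to 1.05), against 3.19% of all such regions. When every list was reduced to its 25397 strongest regions by −log10 q, the Twi list held 134 receptor regions and the Zld DBD list 132. The Grh list then held 115, and the remaining lists 53 (HA-Twi titration) to 111 (Grh DBD). At equal length the Twi list thus stood close to the Zld DBD list.

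The overlap of main lists depended on the pair. With the Twi list overlapped 82.9% of the receptor regions of the Grh list (79.0 to 86.4) against 88.1% of that list, and 86.7% of those of the Zld list (80.2 to 91.7) against 89.9%, an interval that includes the value of the list. From the other side, 32.7% of the receptor regions of the Twi list overlapped the Grh list and 11.9% the Zld list, against 52.6% and 41.8%. Of the 428 receptor regions of the Grh list 25.0% overlapped the Zld list and of the 150 of the Zld list 72.0% overlapped the Grh list; over the whole lists the shares were 62.1% and 80.2%. Regions that all 6 lists of full-length factors held made up 10.3% of the receptor regions of the Grh list (7.57 to 13.6) against 45.6% of the list, 29.3% of those of the Zld list (22.2 to 37.3) against 58.9%, and 4.17% of those of the Twi list (3.05 to 5.56) against 27.6%.

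Regions found with 1 factor alone came next. Such a region is one of a main list that overlaps the titration list of the same factor but no region of the 4 lists from the other full-length factors. The receptor windows held 3 of the 813 Grh-only regions, 4 of 367 that were Zld-only and 1 of 296 that were Twi-only, in 8 different genes. As shares these are 0.369%, 1.09% and 0.338%. The receptor windows held 0.958% of the whole Grh list, 0.442% of that for Zld and 1.47% of that for Twi. The Zld share thus lay above that of its list and the other shares below. These shares rest on only 3, 4 and 1 regions. With a −log10 q of at least 10 there was 1 for each factor. A region of any factor alone was found in 10.9% of all genes and in 30.4% of genes of at least 10 kb. A Grh-only region was held by 6.4% of all genes and 19.4% of those of at least 10 kb, a Zld-only region by 3.13% and 9.02%, and a Twi-only region by 2.55% and 8.72%.

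The 3 Grh-only regions lay inside their genes; the fold enrichments of the main and the titration list follow side by side, without a comparison. In side-III, 3R:5952629-5952698 had 1.60 and 5.13. In beat-VI, 3R:28436622-28436756 had 1.85 and 3.30 and lay 26 bp from a region of the Twi list, and in beat-IIIc, 2L:17243680-17243751 had 1.60 and 2.90. The Zld-only regions had 3.61 and 2.83 in beat-Ib (2L:15923299-15923474, 53 bp from an end of CG4793), 2.55 and 2.14 in DIP-epsilon (2L:6385572-6385775, 140 bp from an end of Nepl6), 2.31 and 1.91 in DIP-gamma (3R:28933340-28933416) and 2.13 and 2.01 in DIP-alpha (X:3562163-3562305, inside ppk8). The Twi-only region, 3R:13449171-13449371, lay 1271 bp outside side-IV with 2.53 and 2.56. None of the 8 overlapped a region of a DBD list, as was so for most factor-only regions: 4.43% of all Grh-only, 10.1% of all Zld-only and 23.3% of all Twi-only regions overlapped one.

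The lists of the DBDs alone gave their own pattern over these genes. The Zld DBD list held 292 receptor summits and the Zld list 150, while the Grh DBD list held 160 and the Grh list 428; the doses and libraries differ, so these counts stand side by side without a comparison. Of the 292 receptor regions of the Zld DBD list 31.5% (26.2 to 37.2) overlapped the Zld list, and of the 150 of the Zld list 61.3% (53.0 to 69.2) overlapped the Zld DBD list, against 71.5% and 70.8% over the whole lists. For Grh, 66.9% of the 160 DBD regions overlapped the Grh list and 24.1% of its 428 regions overlapped the DBD list, against 85.9% and 57.1%.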

How the data were processed

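The files used were the 10 peak lists that the authors deposited, in dm6 coordinates. Bowtie2, MACS2, featureCounts, DESeq2 and deepTools 3.5.1 appear by name alone, per the submitters' processing notes; settings, and any shift of reads for the transposase cut, are not known here. In the deposited lists the authors gave every peak a fold enrichment, which is a ratio of signal to background, a −log10 q and a summit; no region lies below a −log10 q of 1.30. Several summits of 1 peak were merged into 1 region, placed at the strongest. The midpoint stood in where no summit was given, as in the DBD titration lists with their 200 bp windows. Genes came from RefSeq Release 6, without strand or exons, so the nearer gene end replaced the planned gene start. Planned motifs, promoters and proteins were left out, since no sequence was used here.

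Regions overlapped when they shared 1 bp. A summit belonged to a gene whose body or 2 kb flank held it; the windows of the 54 genes do not overlap, the nearest genes being 8.09 kb apart. All genes of the wiring, hemocyte, neuron and glia lists matched by symbol. By rule, values were given for the 3 densest and 3 sparsest genes of each family, genes without a summit, genes with a factor-only region and those with the 10 highest fold enrichments in the main lists; further genes, and the counts near the genes' own ends and of strong regions, were chosen after the values were seen. Members and lists were chosen with earlier results of these data known. No test was made, since no list belongs to 1 library, and the depth is unknown. Alternatives changed the q threshold, list length, window, distance, overlap and class of gene length. Counting and overlap were tested on simulated data. The work used Python 3.11.15 with numpy 2.4.6 and pandas 2.3.3; intervals came from scipy 1.17.1 and figures from matplotlib 3.10.9.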

Additional observations from a re-analysis of the deposited data

How the results depend on the processing

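No paired analysis was possible because each list pools libraries, and leaving out a replicate was not possible for the same reason. Of 284 recomputed values, 177 stayed within 1.5 times or their interval and 107 moved. The receptor median stayed below the background median in all 10 lists under every setting with a background median except the gene body alone with all genes as background (leaving out summits inside other genes gave no background median): there the background median was 0 in 8 lists and the receptor median was above it in 5 lists and below it in 2. With the gene body alone among genes of at least 10 kb it was below in all 10. The values that moved follow, lists in the order main (Grh, Zld, Twi), titration (Grh, Zld, HA-Twi), DBD (Grh, Zld) and DBD titration (Grh, Zld).

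For medians of summits per kb, the gene body alone gave 0.1061 and 0.0194 (Grh, Zld), 0 and 0 (Grh and Zld titration), 0.0172 and 0.0561 (DBD) and 0.0206 and 0.0214 (DBD titration). A −log10 q of at least 10 gave 0.011, 0.0206 and 0.1096 in the main lists and 0 in the Grh and Zld titration and the 4 DBD lists. The same number of regions per list gave 0.038, 0.0229 and 0.0587 in the main lists, 0.003 and 0.0061 in the Grh and Zld titration lists, 0.039 in the Zld DBD list and 0.0234 in its titration list. With 5 kb on each side the HA-Twi titration list had 0.008. Genes of at least 10 kb alone gave 0.1234 (Grh), 0.0061 (Zld titration), 0.0315 and 0.081 (DBD) and 0.0339 and 0.0289 (DBD titration).

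The alternatives of this paragraph were added after the data were seen. Genes of 10 to 150 kb gave 0.0077 (Zld titration) and 0.0308 (Zld DBD titration). Among genes of at least 10 kb, the gene body alone gave 0.093 and 0.0245 (Grh, Zld), 0 (Grh and Zld titration), 0.0188 and 0.0609 (DBD) and 0.026 and 0.0214 (DBD titration). In the same class a −log10 q of at least 10 gave 0, 0.018 and 0.0883 in the main lists and 0 in the Grh and Zld titration and the DBD lists. In that class the same number of regions gave 0.0181, 0.0187 and 0.0276 in the main lists, 0 in the Grh and Zld titration lists, 0.0275 and 0.0246 (DBD) and 0.0206 and 0.0026 (DBD titration).

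Genes with a summit numbered 20, 16 and 12 in the full-length titration lists with the gene body alone. With a −log10 q of at least 10 they numbered 28 (Grh), 22 and 22 (DBD) and 19 and 17 (DBD titration). Summits numbered 50, 45 and 23 in the full-length titration lists and 84 in the Grh DBD titration list with the gene body alone, and 85 in the HA-Twi titration list with 5 kb on each side. With a −log10 q of at least 10 they numbered 60, 77 and 230 in the main lists, 42 and 45 in the DBD lists and 35 and 32 in the DBD titration lists. With the same number of regions they numbered 115, 88 and 134 in the main lists and 132 in the Zld DBD list.

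Factor-only regions numbered 1 for Grh and 1 for Zld with a −log10 q of at least 10, 1 (Grh) and 2 (Twi) when lists had equal length, and 0 for Twi with the gene body alone. Of the receptor regions of 1 main list, 1.28% (2 of 156) for Twi and 100% (1 of 1) for Grh were in the titration list at a −log10 q of at least 10, and 4.76% (2 of 42) for Twi when lists had equal length. Within 1000 bp of a gene end lay 25.2%, 40.0% and 19.3% of the summits of the main lists, 35.6% and 26.7% of those of the DBD lists and 31.9% of the Zld DBD titration list. Within 200 bp lay 7.48%, 15.3% and 4.74% (main), 18.8%, 24.1% and 28.3% (titration), 12.5% and 9.59% (DBD) and 15.6% and 10.4% (DBD titration). These distances change the measure by construction; a cause of the other moves was not tested.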
